A study of Mus musculus with 8 samples.

Results

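The genes of interleukin 1 (IL-1) and IL-18, their antagonists, the IL-1 receptor chains and the inflammatory caspases were followed in splenic CD11b+Gr-1+ cells cultured with or without recombinant trefoil factor 2. The members were Il1a, Il1b, Il18, Il1rn, Il18bp, Il1r2, Il1r1, Il1rap, Casp1 and Casp4. A probe set was taken when its only annotated gene symbol was one of these names, which gave 14 probe sets of the 22626 tested, covering 10 of the 12393 genes on the array. This rule uses no measured value, but the genes were named with earlier results of these data known. RNA came from 8 cultures. In 4 of them the cells were kept for 7 days with GM-CSF (Csf2, 5 nM) plus mouse recombinant Tff2 (rTFF2, 3 µM), and in the other 4 with GM-CSF alone at the same dose. The dose of GM-CSF is that of the sample labels, and the study's methods give a different one. Cells came from the spleens of 4 male Tff2-/- mice on C57BL/6, aged 16 weeks, which had been given 3% dextran sulphate sodium (DSS) in their water for 5 days and were killed 14 days later. Cells of each mouse were sorted for Gr1 and Cd11b by flow cytometry and divided between both conditions, so the cultures are paired by mouse. Loss of Tff2 and the DSS colitis were thus shared by both groups, and no culture without GM-CSF, with intact Tff2 or of a mouse not given DSS was analysed here.

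IL-1α and IL-1β are cytokines of myeloid cells that act on the same receptor. IL-1β and IL-18 are made as inactive precursors and are cut by caspase-1, which is activated on inflammasomes, whereas the caspase encoded by mouse Casp4, also called caspase-11, responds to cytosolic lipopolysaccharide and opens pores through gasdermin D. Signalling requires the receptor chain Il1r1 together with the accessory chain Il1rap. It is held back by the receptor antagonist Il1rn, by the decoy receptor Il1r2 and, for IL-18, by the binding protein Il18bp. Only messenger RNA was measured, and neither processing of the precursors nor secretion can be read from it.

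Several members lie side by side in the mouse genome. In the RefSeq gene table of GRCm38.p6, Il1a and Il1b were neighbouring protein-coding genes on chromosome 2, Il1r2 and Il1r1 were neighbours on chromosome 1, and Casp1 and Casp4 were neighbours on chromosome 9. The 250 bases before the start site are shown for 4 members, Casp4 beside its neighbour Casp1, because these adjacent genes differed in response, and Il1b and Il1a, because they are the ligands of Il1r1. Sequences are from RefSeq, build GRCm38.p6, 5′ to 3′ on the strand of the gene, and capitals mark matches to the NF-kB motif, to the C/EBP motif TTNNGNAA and to the AP-1 motif TGANTCA, searched on both strands.
Casp4, chr9:5308599-5308848, plus strand: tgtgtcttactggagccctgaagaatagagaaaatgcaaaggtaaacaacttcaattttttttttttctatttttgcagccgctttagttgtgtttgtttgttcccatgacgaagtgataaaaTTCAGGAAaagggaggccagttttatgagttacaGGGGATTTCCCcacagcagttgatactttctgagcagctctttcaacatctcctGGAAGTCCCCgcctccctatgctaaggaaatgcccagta
Casp1, chr9:5298267-5298516, plus strand: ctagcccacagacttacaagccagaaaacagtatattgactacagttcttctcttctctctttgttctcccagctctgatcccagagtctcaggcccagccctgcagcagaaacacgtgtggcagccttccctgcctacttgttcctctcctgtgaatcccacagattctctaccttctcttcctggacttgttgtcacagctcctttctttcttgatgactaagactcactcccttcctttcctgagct
Il1b, chr2:129371140-129371389, minus strand: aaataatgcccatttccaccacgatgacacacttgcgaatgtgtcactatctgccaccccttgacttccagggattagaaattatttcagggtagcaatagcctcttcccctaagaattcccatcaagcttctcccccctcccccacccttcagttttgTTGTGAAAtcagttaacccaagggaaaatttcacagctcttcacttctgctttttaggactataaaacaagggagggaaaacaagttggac
Il1a, chr2:129309973-129310222, minus strand: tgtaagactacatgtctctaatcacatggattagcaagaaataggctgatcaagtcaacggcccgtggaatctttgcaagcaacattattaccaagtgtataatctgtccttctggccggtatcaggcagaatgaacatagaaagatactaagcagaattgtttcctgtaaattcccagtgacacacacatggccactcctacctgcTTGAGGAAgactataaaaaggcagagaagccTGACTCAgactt
In the Casp4 window, NF-kB matches lay at -93 to -84, at -92 to -83 (overlapping the first) and at -39 to -30 from the start site, and a C/EBP match lay at -127 to -120. The Casp1 window held no match to any of the 3 motifs. Il1b had a C/EBP match at -91 to -84, and Il1a had a C/EBP match at -43 to -36 and an AP-1 match at -12 to -6. All 10 members had at least 1 window, 14 windows in all. NF-kB matches occurred in windows of Casp4 and Il1r1 and AP-1 matches in windows of Il1a and Il1rn, whereas Il18, Il1r2, Il1rap and Casp1 had no match to any of the 3 motifs. Of the 14 member windows, 3 held the NF-kB motif, 9 the C/EBP motif and 2 the AP-1 motif, and some windows of the same gene overlap. Of all 32851 promoter windows of this length, 7.25% held the NF-kB motif, 36.8% the C/EBP motif and 6.75% the AP-1 motif. These matches describe the letters, and binding was not measured.

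Signal is given on the log2 scale of GCRMA, a background-corrected and quantile-normalised array intensity, on which a difference of 1 is a doubling of signal. Levels of different probe sets cannot be set against each other on this scale. A probe set was called not above background in a group when its mean was at or under 3.89, the 95th percentile of the values of 38 measured genes of other tissues. Across all probe sets 4927 passed an adjusted p of 0.05 (limma without a term for the mouse, Benjamini-Hochberg over all probe sets), 2636 higher (11.7%) and 2291 lower (10.1%) with rTFF2. With the mouse as a block, which uses the pairing, 5811 passed. After centring each array on its median the share of higher calls was 41.9%, against 53.5% as deposited. Array medians were 4.14 to 4.20 with rTFF2 and 4.09 to 4.12 with GM-CSF alone, and arrays correlated at 0.985 to 0.998. Itgam (Cd11b) stood at 12.72 ± 0.14 with rTFF2 and 12.35 ± 0.20 with GM-CSF alone (SD, n = 4 each), and the macrophage genes Adgre1 (11.74 ± 0.05 and 11.76 ± 0.11) and Csf1r (12.88 ± 0.10 and 12.67 ± 0.10) were also high in both groups. Other macrophage genes differed between the groups in both directions, as given below. No probe set with Ly6g, a target of Gr-1 antibodies, as its only symbol was found. Tff2 was not above background in either group. The 3′ minus 5′ difference of the Actb control probe sets, a sign of RNA quality, was 0.70 ± 0.05 with rTFF2 and 0.53 ± 0.09 with GM-CSF alone (SD, n = 4 each, two-sided exact permutation p = 0.029, the smallest 4 against 4 arrays can give), and that of Gapdh was 0.26 ± 0.04 and 0.22 ± 0.07 (exact permutation p = 0.40).

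IL-1 family genes were higher with rTFF2 in most probe sets, and none was lower. Of the 14 probe sets, 9 rose and 0 fell, covering 8 genes: Il1a, Il1b, Il18, Il1rn (1451798_at only), Il18bp, Il1r1, Il1rap and Casp4. That share stands against 11.7% higher among all probe sets. Il1rap rose in 1449585_at and 1421843_at and not in 1421844_at, its probe set of highest mean. Without the 0.05 threshold, all 14 differences were positive and 11 probe sets were higher in 4 of 4 mice. The median difference of the members was 0.67 on the log2 scale, against -0.02 over all probe sets tested. In 7 of the 14 probe sets every rTFF2 array lay above every GM-CSF alone array, against 12.8% of all probe sets. With the mouse as a block 10 of the 14 rose (13.7% of all probe sets), and without both arrays of mouse 2 also 10. With the Actb 3′ minus 5′ difference as a covariate, 3 rose (Il1b, Il1r1 and Casp4). The covariate moves with the groups, and the members' median difference with it was 0.54, against 0.67 without it. The log2 differences of Il18 (0.83 with the covariate, 0.85 without), Il18bp (0.54 and 0.51) and Il1rn 1451798_at (0.48 and 0.40) were about as large or larger while their calls were lost, and those of Il1a (0.56 and 1.01) and Il1rap 1449585_at (0.54 and 0.70) were smaller.

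Marker genes of several cell types moved with the same groups, while 12.4% of all genes rose and 11.2% fell. Neutrophil genes were higher in 13 of 14 measured markers. Their summed linear signal, which weighs the brightest probe sets most, was 93096 to 108638 per array with rTFF2 and 38168 to 71199 with GM-CSF alone. Basophil and mast cell genes were higher in 7 of 11, with sums of 4269 to 7834 and 211 to 517, while Cma1, Mcpt4, Tpsb2 and Il4 were not above background in either group. Dendritic cell and MHC class II genes were lower in 11 of 12, with sums of 8392 to 12785 with rTFF2 and 33293 to 43467 with GM-CSF alone, and Flt3 and Cd209a were not above background. Of 12 macrophage genes 4 were higher (Cd68, Mrc1, Mertk and Ms4a7) and 2 lower (C1qa and C1qb), while Marco and Cd163 were not above background in either group. Of the 9 measured genes each of T and NK cells and of B cells, 8 were not above background in either group, as were 6 of 7 erythroid and 10 of 12 stromal and endothelial genes. In such bulk samples, more cells of a type and more RNA per cell cannot be told apart, and the part of these cell types in the values below was not tested.

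**Figure D1:**
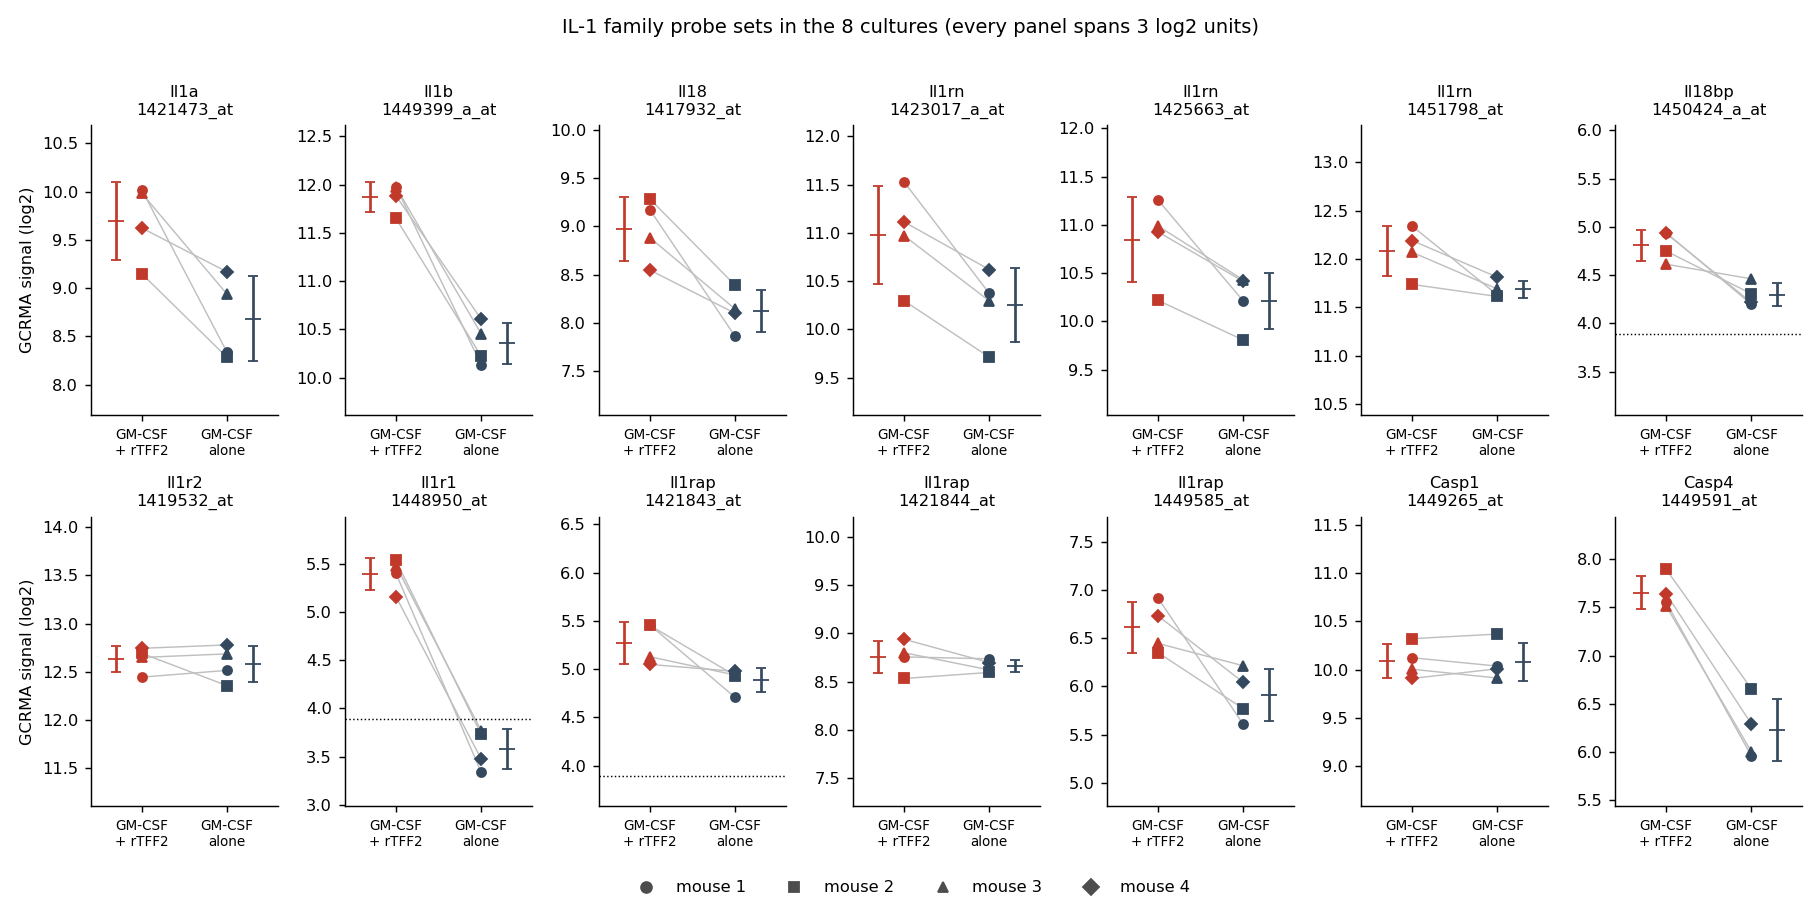
GCRMA signal (log2) of the 14 IL-1 family probe sets in the 8 cultures, GM-CSF plus rTFF2 at the left of each panel and GM-CSF alone at the right; symbols are mice, grey lines join the cultures of a mouse, bars are mean ± SD (n = 4) and the dotted line is the background level of 3.89. Il1b, Il18, Il18bp, Il1r1 and Casp4 do not overlap between the groups, whereas Il1r2 and Casp1 do.

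Among the ligands, Il1b rose most in fold. Its probe set 1449399_a_at read 11.98, 11.65, 11.98 and 11.89 in mice 1 to 4 with rTFF2, against 10.14, 10.23, 10.46 and 10.61 with GM-CSF alone. The lowest rTFF2 culture lay above the highest culture with GM-CSF alone. Il1b was 2.86-fold higher with rTFF2 (log2 difference 1.52, SE 0.12, n = 4 each, limma adjusted p = 9.1e-05, and 2.4e-04 with the mouse as a block), with differences of 1.84, 1.42, 1.52 and 1.28 in mice 1 to 4. The rise of Il1b passed the threshold in all 17 alternatives, with adjusted p up to 0.0060.

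Il1a encodes IL-1α, which can act without cleavage by caspase-1. Its probe set 1421473_at read 10.02, 9.15, 9.98 and 9.62 with rTFF2, against 8.34, 8.28, 8.94 and 9.17 with GM-CSF alone. Every mouse was higher with rTFF2, though the groups touched, since mouse 2 with rTFF2 lay just under mouse 4 with GM-CSF alone. Il1a was 2.02-fold higher (log2 difference 1.01, SE 0.25, limma adjusted p = 0.018, and 0.0069 with the block). The adjusted p was 0.055 without GM-CSF alone replicate 1, 0.054 without rTFF2 replicate 1, 0.056 without rTFF2 replicate 3 and 0.44 with the Actb difference as a covariate (range over all alternatives 0.0069 to 0.44).

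Il18 encodes the other caspase-1 substrate. Probe set 1417932_at read 9.17, 9.28, 8.88 and 8.55 with rTFF2 and 7.86, 8.39, 8.14 and 8.10 with GM-CSF alone. All 4 rTFF2 cultures were above all 4 cultures with GM-CSF alone, by the least margin in mouse 4. Il18 was 1.80-fold higher (log2 difference 0.85, SE 0.17, limma adjusted p = 0.0069, and 0.0045 with the block). With the Actb covariate the difference was 0.83 and its adjusted p 0.12 (0.0031 to 0.12 over the alternatives).

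Of the antagonists, Il18bp and 1 of 3 Il1rn probe sets rose in the unpaired fit. With the mouse as a block, Il18bp and all 3 Il1rn probe sets passed. Il1rn encodes the IL-1 receptor antagonist. Its probe set with the highest mean, 1451798_at, read 12.34, 11.74, 12.07 and 12.19 with rTFF2 and 11.63, 11.61, 11.69 and 11.81 with GM-CSF alone. Mouse 2 had the lowest value in both groups, and its rTFF2 culture lay within the range of GM-CSF alone. The difference was 1.32-fold (log2 difference 0.40, SE 0.12, limma adjusted p = 0.045, and 0.027 with the block).

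Probe set 1423017_a_at of Il1rn read 11.53, 10.30, 10.97 and 11.11 with rTFF2 against 10.37, 9.71, 10.30 and 10.62 with GM-CSF alone. Its difference of 0.73 (SE 0.26) did not pass in the unpaired fit (limma adjusted p = 0.080) and passed with the mouse as a block (adjusted p = 0.0046). Probe set 1425663_at read 11.26, 10.22, 10.99 and 10.93 against 10.21, 9.81, 10.43 and 10.42, a difference of 0.63 (SE 0.22) with adjusted p = 0.071 unpaired and 0.0071 with the block. All 3 Il1rn probe sets were higher with rTFF2 in 4 of 4 mice, and in both groups mouse 2 was lowest in each. Without both arrays of mouse 2 their adjusted p were 0.010 (1423017_a_at), 0.0036 (1425663_at) and 0.010 (1451798_at). The call of 1451798_at was lost without any single GM-CSF alone array, without rTFF2 replicate 1, 3 or 4, with median centring, with the offset of 32 on the linear scale, at a threshold of 0.01 and with the Actb covariate (adjusted p of the alternatives 0.0058 to 0.21).

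Il18bp, which captures secreted IL-18, was measured close to the background level. Probe set 1450424_a_at read 4.94, 4.75, 4.61 and 4.93 with rTFF2 and 4.20, 4.31, 4.46 and 4.22 with GM-CSF alone. The groups did not overlap, with mouse 3 closest. Il18bp was 1.43-fold higher (log2 difference 0.51, SE 0.10, limma adjusted p = 0.0054, and 0.015 with the block). With the Actb covariate the difference was 0.54 and its adjusted p 0.088.

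The decoy receptor Il1r2 showed no rise. It binds IL-1 without signalling, and its probe set 1419532_at read 12.45, 12.69, 12.65 and 12.74 with rTFF2 against 12.52, 12.36, 12.69 and 12.78 with GM-CSF alone. The groups overlapped fully, and 1 of 4 mice, mouse 2, was higher with rTFF2. The difference was 0.05 on the log2 scale (95% interval -0.19 to 0.29, limma adjusted p = 0.79, and 0.74 with the block).

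The signalling receptor Il1r1 moved differently from its neighbour. Probe set 1448950_at read 5.40, 5.53, 5.48 and 5.16 with rTFF2, against 3.34, 3.74, 3.77 and 3.48 with GM-CSF alone. All 4 cultures with GM-CSF alone lay under the background level and all 4 rTFF2 cultures lay above it. Measured as deposited, Il1r1 was 3.51-fold higher (log2 difference 1.81, SE 0.12, limma adjusted p = 4.6e-05, and 7.7e-05 with the block), and against the background level it was at least 2.82-fold higher. After adding 32 to the linear signal the log2 difference was 0.75. The genes Mbp and Cela1, which helped to set the background level, were themselves bright here, and without them the level was 3.22, below all 4 Il1r1 readings with GM-CSF alone.

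The accessory chain Il1rap, which Il1r1 needs for signalling, was measured by 3 probe sets that did not move alike. Probe set 1449585_at read 6.91, 6.35, 6.45 and 6.73 with rTFF2 and 5.61, 5.77, 6.21 and 6.04 with GM-CSF alone, with no overlap. It was 1.63-fold higher (log2 difference 0.70, SE 0.16, limma adjusted p = 0.013, and 0.018 with the block). Probe set 1421844_at, which had the highest mean of the 3, read 8.76, 8.53, 8.80 and 8.94 against 8.74, 8.60, 8.62 and 8.70, and its difference of 0.09 did not pass (95% interval -0.11 to 0.30, adjusted p = 0.51, and 0.43 with the block). Probe set 1421843_at read 5.46, 5.45, 5.13 and 5.05 against 4.71, 4.93, 4.94 and 4.98. Its difference of 0.38 (SE 0.11) had an adjusted p of 0.039 that became 0.055 with the mouse as a block, and the call was lost in 14 of 17 alternatives. The call of 1449585_at was lost with the Actb covariate (adjusted p = 0.27) and at a threshold of 0.01. The transcripts or segments that each probe set detects were not resolved here.

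The caspases differed from each other. Casp4 probe set 1449591_at read 7.55, 7.89, 7.51 and 7.64 with rTFF2, against 5.96, 6.66, 6.00 and 6.29 with GM-CSF alone. The groups were well apart, and mouse 2 was highest in both. Casp4 was 2.68-fold higher (log2 difference 1.42, SE 0.16, limma adjusted p = 4.1e-04, and 1.5e-04 with the block), and the log2 difference stayed between 1.12 and 1.64 with adjusted p up to 0.0075 in all 17 alternatives.

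Casp1, whose product cuts the IL-1β and IL-18 precursors, read 10.12, 10.32, 10.00 and 9.91 with rTFF2 and 10.04, 10.37, 9.91 and 10.01 with GM-CSF alone (probe set 1449265_at). The values overlapped, and mouse 2 was highest in both groups here too. The difference was 0.01 (95% interval -0.26 to 0.28, limma adjusted p = 0.97, and 0.95 with the block), so a change of the size seen for Casp4 lay outside its interval.

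**Figure D2:**
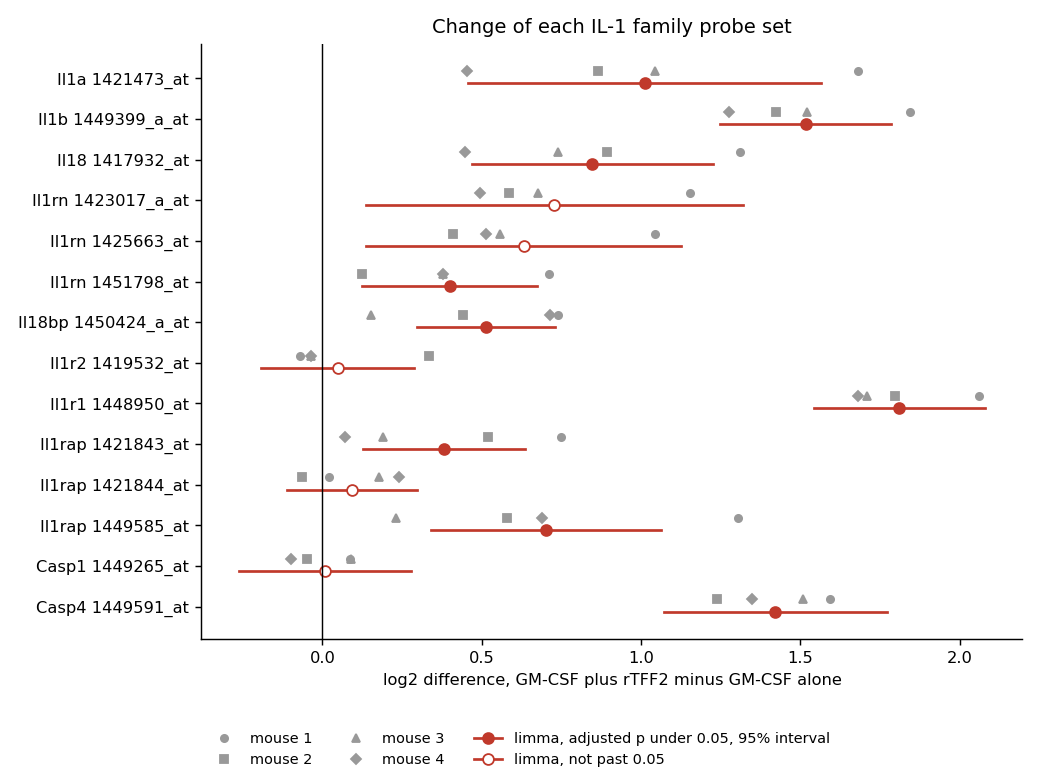
Log2 difference (rTFF2 cultures over cultures with GM-CSF alone) of each IL-1 family probe set; circles and lines in red are the limma estimate with its 95% interval (filled where the adjusted p was under 0.05) and grey symbols are the 4 mice. Il1r1 (1.81), Il1b (1.52) and Casp4 (1.42) have the highest estimates, and the intervals of Il1r2, Casp1 and Il1rap 1421844_at include 0.

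Ordered by the size of their difference among all 12393 genes, each represented by its probe set of highest mean, Il1r1 ranked 91, Il1b 128 and Casp4 149 from the top. Il1a ranked 280 and Il18 389, ahead of Il18bp (944), Il1rn (1335), Il1rap (3685), Il1r2 (4459) and Casp1 (5340). The ranks of Il1rn and Il1rap depend on the probe set chosen. The place of Il1r1 ahead of Il1b rests on Il1r1 readings under the background level of 3.89. Against that level its lower bound of 2.82-fold is below the 2.86-fold of Il1b, so the bound does not settle their order. Without Mbp and Cela1 the level was 3.22, and the Il1r1 readings with GM-CSF alone lay above it.

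Differences between 2 genes on the same array were then compared, which cancels any scaling of whole arrays. The size of such a difference has no meaning between probe sets, and only its shift between the groups is read. Il1b minus Il1rn was -0.21 ± 0.14 with rTFF2 and -1.33 ± 0.14 with GM-CSF alone (SD, n = 4 each), a shift of 1.12 or 2.17-fold. It was higher in 4 of 4 mice (two-sided exact permutation p = 0.029, the smallest possible, and 0.038 adjusted over 4 comparisons). Il1a minus Il1rn was -2.39 ± 0.24 and -3.00 ± 0.36, a shift of 0.61 in 4 of 4 mice with the same exact p values. In mice 1 to 4 the Il1a shift was 0.97, 0.74, 0.66 and 0.07, so mouse 4 hardly moved. Both agonists thus rose more than their antagonist by its probe set of highest mean.

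That result depended on the Il1rn probe set. Against 1423017_a_at the Il1b shift was 0.79 (exact permutation p = 0.057) and the Il1a shift 0.28 (exact permutation p = 0.29), and against 1425663_at they were 0.89 (exact permutation p = 0.029) and 0.38 (exact permutation p = 0.057). For IL-18, Il18 minus Il18bp was 4.16 ± 0.39 with rTFF2 and 3.83 ± 0.20 with GM-CSF alone, and the shift of 0.34, higher in 3 of 4 mice, did not pass (exact permutation p = 0.20).

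For the receptors, Il1r1 minus Il1r2 was -7.24 ± 0.24 with rTFF2 and -9.00 ± 0.30 with GM-CSF alone, a shift of 1.76 or 3.39-fold in 4 of 4 mice (exact permutation p = 0.029, adjusted 0.038). This shift used Il1r1 readings under the background level, and it was 0.70 after adding 32 to the linear signal. Casp4 minus Casp1, a comparison chosen after their values were seen, was -2.44 ± 0.13 and -3.85 ± 0.17, a shift of 1.41 or 2.67-fold in 4 of 4 mice (exact permutation p = 0.029). With the arrays paired by mouse, a sign-flip test over 4 mice cannot go below p = 0.125 (exact) for any of these.

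**Figure D3:**
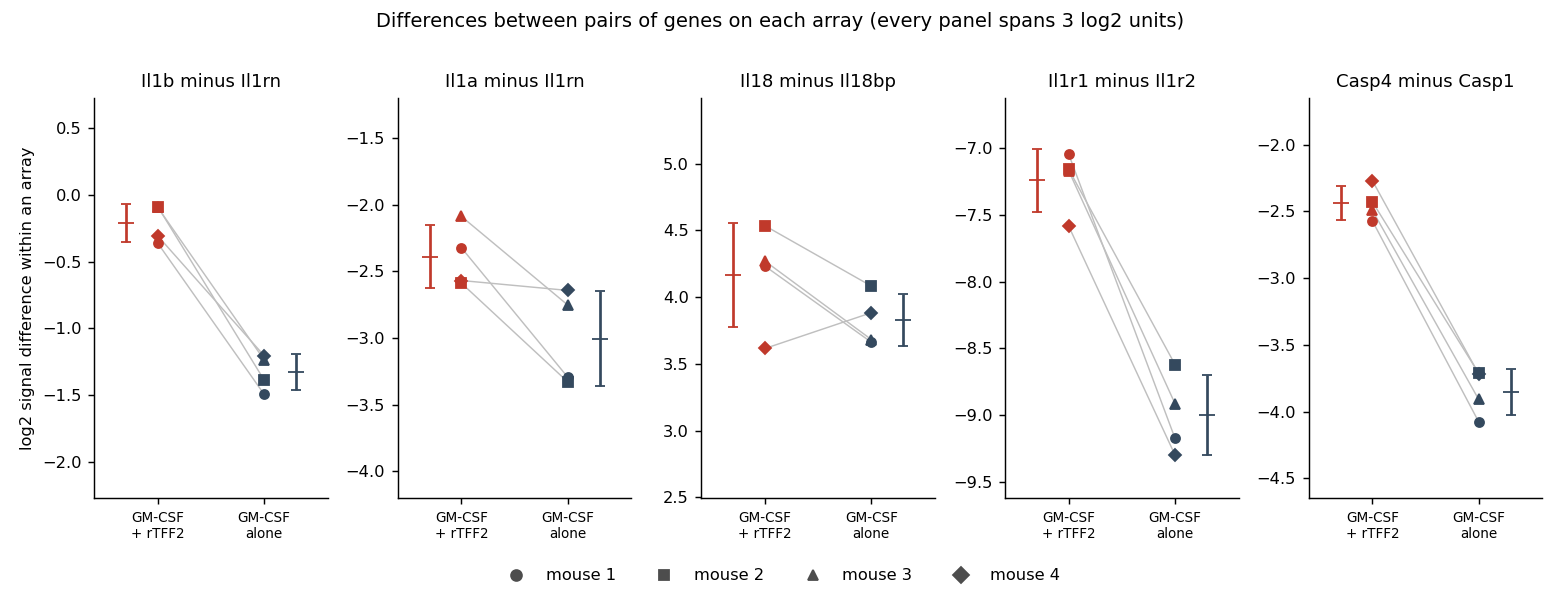
Difference in log2 signal between 2 genes on the same array, GM-CSF plus rTFF2 at the left and GM-CSF alone at the right of each panel; symbols are mice, lines join the cultures of a mouse and bars are mean ± SD (n = 4). The groups are apart for Il1b minus Il1rn, Il1a minus Il1rn, Il1r1 minus Il1r2 and Casp4 minus Casp1, and overlap for Il18 minus Il18bp.

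Among other receptor chains and the signalling genes after them, a minority of those measured changed. IL-1 and IL-18 receptors recruit the adaptor Myd88 and the IRAK kinases, which activate the TAK1 and IKK kinases. Of 20 measured genes of IL-1 and IL-18 receptor signalling, 6 rose and 0 fell (12.4% of all genes rose and 11.2% fell), with a median difference of 0.15, against -0.03 over all genes. Tab3, an adaptor of TAK1, was 1.40-fold higher (6.85 ± 0.13 and 6.36 ± 0.12, limma adjusted p = 0.0053). Il18rap, the accessory chain of the IL-18 receptor, was 1.70-fold higher (6.01 ± 0.38 and 5.24 ± 0.37, adjusted p = 0.034). Ikbkb, a kinase of the inhibitor of NF-kB, was 1.30-fold higher (adjusted p = 0.035), and Map3k8, a kinase that feeds into the MAP kinases, was 1.63-fold higher in 3 of 4 mice (adjusted p = 0.036). The calls of Map3k8, Ikbkb and Il18rap were lost in 11, 9 and 7 of 17 alternatives, several of them with 1 array left out. The other 2 that rose were Tollip (1.24-fold) and Myd88 (1.19-fold, adjusted p = 0.049, and 0.083 with the mouse as a block). Il18r1, the ligand-binding chain for IL-18, differed by -0.08 with wide scatter (95% interval -1.25 to 1.09). Irak1, Traf6 and Map3k7 (TAK1) differed by 0.06, 0.16 and -0.22 and did not pass. Il1rl1, Irak2, Irak3, Irak4 and Chuk were also on the list but were not measured. The count of 6 was 5 with the block, 3 without mouse 2, 3 with the offset of 32, 0 with the Actb covariate and 1 to 5 with 1 array left out, lowest without GM-CSF alone replicate 1.

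Of 23 measured genes of inflammasomes and cytokine release, 8 rose and 3 fell (12.4% of all genes rose and 11.2% fell), with a median difference of 0.16, and with the block 10 rose and 3 fell. Mefv, which encodes the inflammasome sensor pyrin, read 7.69, 6.96, 7.35 and 7.60 with rTFF2, against 4.77, 4.57, 4.43 and 5.01 with GM-CSF alone. The groups were far apart, and Mefv was 6.52-fold higher (log2 difference 2.70, SE 0.18, limma adjusted p = 4.5e-05). Ninj1, which drives rupture of the plasma membrane of dying cells, was 2.67-fold higher (11.02 ± 0.14 and 9.60 ± 0.27, adjusted p = 2.0e-04), and P2rx4, an ion channel opened by extracellular ATP, 2.02-fold higher (10.66 ± 0.13 and 9.64 ± 0.15, adjusted p = 2.0e-04). Il1f9, the gene of the IL-1 family cytokine IL-36γ, was 1.96-fold higher (log2 difference 0.97, adjusted p = 0.0027). The other 4 that rose were Elane, Prtn3 and Ctsg, proteases of neutrophil granules that also stand in the neutrophil list, and Serpinb1a, an inhibitor of such proteases, with log2 differences of 3.33, 4.19, 4.38 and 2.19. Their cultures with GM-CSF alone scattered widely (SD 1.32, 2.57, 3.01 and 1.24, n = 4). For Elane and for Ctsg, only 2 of these 4 cultures were above the background level, which limits the folds.

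Serpinb9, an inhibitor of granzyme B, fell. It read 4.70 ± 0.24 with rTFF2 and 6.87 ± 0.41 with GM-CSF alone (log2 difference -2.18, SE 0.20, limma adjusted p = 1.6e-04). Gbp2, an interferon-induced GTPase, differed by -1.67 (adjusted p = 0.010) and Nek7, a partner of Nlrp3, by -0.28 (adjusted p = 0.019), both lower in 4 of 4 mice. Of 12 genes of the list that did not pass, 3 are given as examples. Nlrp3, an inflammasome sensor, differed by -0.02 (95% interval -0.18 to 0.14), Pycard, the adaptor that joins sensors to caspase-1, by 0.04 (95% interval -0.21 to 0.29), and Aim2, the sensor of cytosolic DNA, by 0.04 (95% interval -0.35 to 0.44).

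Most genes of a list of 30 known to be induced by IL-1 rose. The list was chosen with earlier results of these data known, so its count is no independent test. All 30 were measured, 20 rose and 0 fell (12.4% of all genes rose and 11.2% fell), with a median difference of 0.71. Cxcl5, a chemokine for neutrophils, read 8.91, 8.37, 8.97 and 8.27 with rTFF2, against 3.00, 2.24, 2.41 and 2.98 with GM-CSF alone. It was not above background with GM-CSF alone and was at least 26.7-fold higher with rTFF2 (limma adjusted p = 1.9e-06). Saa3, an acute phase protein, was 11.8-fold higher (11.87 ± 0.42 and 8.31 ± 0.85, adjusted p = 3.9e-04). Bcl3, a nuclear partner of NF-kB, was 2.62-fold higher (6.86 ± 0.09 and 5.47 ± 0.10, adjusted p = 1.5e-05), and Sod2, the mitochondrial superoxide dismutase, was 1.77-fold higher (adjusted p = 3.6e-04).

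Other genes of the list that rose were Ptgs2 (log2 difference 3.53), Il6 (2.64), Cxcl1 (1.99) and Ccl2 (1.38). Lcn2, which rose by 1.31, is also a neutrophil marker. Csf3 passed the test (adjusted p = 0.0060) while not above background in either group. Tnf (0.54, limma adjusted p = 0.16) and Icam1 (0.20) did not pass. NF-kB feedback genes of the list were divided. Nfkbia (0.19), Tnip1 (0.16), Tnfaip3 (0.15) and Nfkbie (0.12) did not pass. Nfkbiz (0.96, limma adjusted p = 0.0015) and Zc3h12a (0.70, limma adjusted p = 0.0082) rose. In the list 6 genes, Ccl20, Csf3, Tnfaip3, Vcam1, Mmp3 and Nos2, were not above background in either group. Many of these genes also respond to other signals, and the list does not tell which signal moved them.

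**Figure D4:**
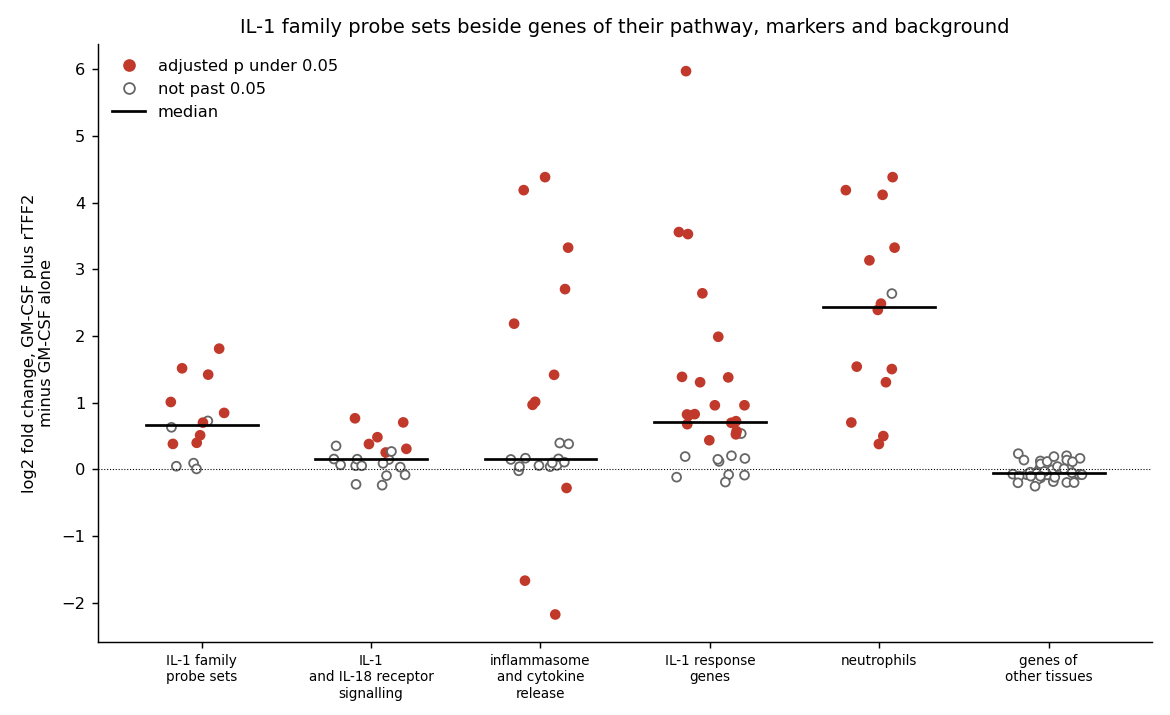
Log2 fold change with rTFF2, relative to GM-CSF alone, of the 14 IL-1 family probe sets, of the measured genes of 3 pathway lists, of neutrophil markers and of genes of other tissues; red points have a limma adjusted p under 0.05 and black lines are medians. The medians are 0.67, 0.15, 0.16 and 0.71 for the members and the pathway lists, 2.44 for neutrophil markers and -0.05 for genes of other tissues.

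The genes whose pattern over the 8 arrays was most like that of Il1b were Lrp1, an endocytic receptor (Pearson r = 0.999), Numb, an endocytic adaptor (0.995), Cebpb, a C/EBP transcription factor (0.995), Mgst2, a glutathione transferase (0.994), and Ly6i, a surface protein of the Ly6 family (0.994). They were taken from 6912 genes above background. The 8 points share the groups, so any gene that differs between them with little scatter has a high r, and 252 genes had one above 0.95. Lrp1 read 9.12 ± 0.08 with rTFF2 and 8.23 ± 0.12 with GM-CSF alone, and Cebpb 13.62 ± 0.05 and 13.18 ± 0.08 (SD, n = 4 each).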

How the data were processed

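RNA of 8 cultures, 4 with GM-CSF plus rTFF2 and 4 with GM-CSF alone, was measured on Affymetrix mouse expression arrays. The deposited values are log2 signals made by the authors with GCRMA, with GCRMA version 2.30.0 and affy version 1.36.0 listed in the submitters' processing notes. GCRMA corrects background by probe sequence and quantile-normalises the arrays. Nothing was renormalised for the main results. Arrays hold no read depth, and 4 arrays a group limit the precision.

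Of 22690 probe sets, 64 control sets were left out. Symbols came from the platform annotation: 20380 probe sets had 1 symbol, 691 several and 1555 none. All 14 member probe sets were found by gene identifier in RefSeq's GRCm38.p6 table, with the same symbol. Tests used limma 3.58.1 (lmFit, eBayes) in R 4.3.3, with Benjamini-Hochberg adjustment over 22626 probe sets and a threshold of 0.05. The main fit had no term for the mouse and so ignores the pairing of the cultures. The study's methods name limma and do not state whether its fit was paired. Counts are from the main fit unless the block is named. Single values were tested by exact permutation over the 70 divisions of the arrays (Python 3.11.15). Scripts were tested on simulated data.

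The labels give both cultures of a mouse the same animal number. Deviations from group means over 11752 probe sets above background correlated at 0.04, 0.55, 0.32 and 0.40 within mice 1 to 4 and at -0.55 to 0.35 between mice, and both cultures of a number came from 1 animal, which pairs them. The mouse was used as a block in an alternative fit, whose adjusted p stands beside each member.

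Where 1 value per gene was needed, the probe set of highest mean was taken. Named genes were every member, the 4 genes with the smallest adjusted p of each of 3 pathway lists, and the 5 genes most like Il1b; other names are examples chosen after their values were seen. Members, lists and marker sets were chosen with earlier results of these data known. Alternatives were the block, a filter on dim probe sets, repeated quantile normalisation, median centring, an offset of 32, a trended robust prior, a threshold of 0.01, the Actb covariate, mouse 2 left out and each array left out. Casp4 minus Casp1, the other Il1rn probe sets in the differences and the background level without Mbp and Cela1 were added after seeing the data.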

Additional observations from a re-analysis of the deposited data

Results flagged for a closer look

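In 3 of 52 sets of 4 arrays checked, 1 array stood far from the other 3; chance gives about 1 in 20. Il1rap probe set 1421843_at read 4.71 in mouse 1 with GM-CSF alone, against 4.93 to 4.98 in the other 3 mice of that group; without that array the difference of this probe set was 0.32 (limma adjusted p = 0.11). Ikbkb read 10.17 in mouse 4 with rTFF2, against 9.96 to 9.98 in the other mice. Ninj1 read 10.82 in mouse 2 with rTFF2, against 11.08 to 11.11 in the other mice, all above the highest reading with GM-CSF alone.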

How the results depend on the processing

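In all 17 alternatives Il1b, Il1r1 and Casp4 kept their direction and passed the threshold used there. All probe sets called numbered 2295 with the Actb covariate, 2417 at a threshold of 0.01, 5811 with the mouse as a replicate block and 3525 to 5134 when single arrays were left out. Member probe sets higher numbered 3 with the Actb covariate, 5 at 0.01, 10 with the replicate block, 7 with median centring and with the offset, and 6 to 10 when single arrays were left out; none was lower in any of them. Without GM-CSF alone replicate 1 or rTFF2 replicate 1 there were 6. Signalling genes higher numbered 0 with the Actb covariate, 3 without mouse 2, 3 with the offset, 1 at 0.01 and 1 to 5 when single arrays were left out. Inflammasome genes higher numbered 5 and lower 1 at 0.01, and 6 to 8 higher and 2 to 3 lower when single arrays were left out. IL-1 response genes higher numbered 14 to 22 over all alternatives.

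The small differences of 2 members changed sign. Il1r2 differed by -0.26 with the Actb covariate, -0.047 without mouse 2, -0.00022 with median centring and -0.028 to 0.11 when single arrays were left out. Casp1 differed by -0.041 with median centring, -0.0067 after repeated quantile normalisation and -0.070 to 0.10 when single arrays were left out. Neither passed in any alternative. When single arrays were left out, the shift of Il1b minus Il1rn was 1.06 to 1.17, of Il1a minus Il1rn 0.50 to 0.73, of Il18 minus Il18bp 0.21 to 0.52 and of Il1r1 minus Il1r2 1.66 to 1.89. With the Il1rn probe set 1423017_a_at the Il1b shift was 0.79 and the Il1a shift 0.28, and with 1425663_at the Il1a shift was 0.38, none past 0.05. The cause of these changes was not tested. Apart from Il1rn 1423017_a_at and 1425663_at (gained) and Il1rap 1421843_at (lost), the replicate block changed no call of a member. Readings near the background level (Il18bp, Il1r1 with GM-CSF alone) limit the folds of those genes.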
